A study of Mus musculus with 6 samples.

Results

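Skeletal muscle makes ATP by breaking down glucose and its own glycogen, holds a phosphate reserve in phosphocreatine, and burns fatty acids and pyruvate in mitochondria. Many steps of these routes have a gene used mainly in muscle and paralogs used in other tissues, and several of the muscle genes are known targets of MyoD and MEF2 during differentiation. LncMyoD is a long non-coding RNA encoded upstream of Myod1. The genes described here are 32 genes of glycolysis, glycogen and muscle energy supply, chosen by name from textbook function, out of 21887 protein-coding genes. They were searched for DNA bound by LncMyoD in mouse myotubes.

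LncMyoD-bound DNA was isolated by ChIRP, in which biotin-labelled DNA probes pull down an RNA together with the chromatin attached to it. The 6 samples comprised capture with odd-numbered probes, capture with even-numbered probes, and input DNA, with 2 replicates each. All came from differentiated myotubes of the C57BL/6 strain, made from primary myoblasts kept in 2% HS for 2 days, with no other treatment or genotype in the labels. The processed results were 2 peak lists, 1 per replicate, with 157214 and 179630 peaks in mm10. Each list carries a label common to both captures and the input of its replicate, so neither capture could be compared with the other or with input. Whether the replicates came from separate cultures is not stated, and differences between the lists may be technical. The lists hold no expression values, so the labelled cell type could not be checked against its markers, and sequencing depth is unknown.

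Peaks that overlapped by at least 1 bp were merged, and merged stretches with a peak from each list are called shared regions. There were 97115 on assembled chromosomes. A gene was counted when a shared region reached within 5 kb of its RefSeq span, the stretch from the first to the last annotated base. Fold is the authors' enrichment at a peak's summit over the caller's background, and is given for replicate 1 and then replicate 2. Place is a region's order among all 97115 by its percentile of −log10 q, averaged over the lists.

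Shared regions lay within 5 kb of 29 of the 32 energy genes (90.6%), against 70.3% of all protein-coding genes. Long spans take up more regions, and 75.0% of the protein-coding genes of the same length had one, which for 32 genes comes to 24.0. For that value genes were divided by length into 10 classes of equal number, and each energy gene was given the share of its own class. The 3 genes without a region, Tpi1, Pgk1 and Eno3, all encode glycolytic enzymes. Promoters were covered in a share of the genes like that elsewhere. Regions over the 300 bases around a listed start were found at 3 of 29 energy genes with such a start (10.3%), against 10.8% of all protein-coding genes. The genes were chosen by function with earlier results of these data known, so these counts are set beside the background without a test. Both counts concern where peaks were called, and not whether a gene responds to LncMyoD.

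The 3 promoters under a shared region are shown because they are the only listed promoters of the energy genes that a region reached. They belong to Hk2 (hexokinase 2, which traps glucose in the muscle cell), Ak1 (adenylate kinase, which makes ATP and AMP from ADP) and Pdk2 (a kinase that shuts off pyruvate dehydrogenase). Each is given 5′ to 3′ on the gene's strand, from RefSeq on GRCm38.p6, and runs from 250 bases before the start to 50 after it. Capitals mark E-boxes (CANNTG, the letters bound by MyoD and other bHLH factors). Hk2 is chr6:82774405-82774704 on the minus strand, Ak1 is chr2:32628140-32628439 on the plus strand and Pdk2 is chr11:95041322-95041621 on the minus strand.
Hk2: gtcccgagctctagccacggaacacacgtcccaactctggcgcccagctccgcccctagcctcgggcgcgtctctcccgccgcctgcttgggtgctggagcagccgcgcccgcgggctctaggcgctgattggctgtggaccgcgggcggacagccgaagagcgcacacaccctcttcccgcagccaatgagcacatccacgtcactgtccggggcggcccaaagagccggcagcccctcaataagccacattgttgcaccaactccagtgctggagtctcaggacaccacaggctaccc
Ak1: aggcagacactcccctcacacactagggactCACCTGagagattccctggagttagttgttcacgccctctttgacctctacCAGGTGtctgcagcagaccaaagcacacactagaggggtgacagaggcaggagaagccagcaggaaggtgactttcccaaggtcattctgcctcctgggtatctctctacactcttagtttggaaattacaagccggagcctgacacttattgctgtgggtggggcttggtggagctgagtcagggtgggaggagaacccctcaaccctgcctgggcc
Pdk2: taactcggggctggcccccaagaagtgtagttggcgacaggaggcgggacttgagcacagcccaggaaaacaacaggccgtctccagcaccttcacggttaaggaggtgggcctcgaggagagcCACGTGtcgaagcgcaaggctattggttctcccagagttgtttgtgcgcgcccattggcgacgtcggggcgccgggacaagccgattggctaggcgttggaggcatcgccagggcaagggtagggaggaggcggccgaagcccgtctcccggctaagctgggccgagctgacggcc

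The Hk2 window was covered over all 300 bases by a region of 82.6-fold and 51.0-fold and holds no E-box. The Ak1 window, at 1 of 4 listed starts (32628390), was covered over 194 bases by a weak region of 5.14-fold and 4.02-fold. It holds CACCTG 219 bases before the start and the same letters on the other strand, CAGGTG, 168 bases before it. The Pdk2 window was covered over 144 bases at 5.14-fold and 5.56-fold. Its single E-box, CACGTG, lies 126 bases before the start. Of these promoters the Hk2 one alone lay under a strong region in both lists.

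The next promoters are shown for the opposite reason: they carry CAGCTG, the E-box usually preferred by MyoD, and no shared region reached them. They are examples from the 15 energy genes with CAGCTG in a listed promoter. No shared region reached a CAGCTG promoter of the others either. Ckm encodes muscle creatine kinase, Pygm muscle glycogen phosphorylase, Pgam2 the muscle phosphoglycerate mutase and Gys1 muscle glycogen synthase. Ckm is chr7:19410844-19411143 (plus strand), Pygm is chr19:6384158-6384457 (plus strand), Pgam2 is chr11:5803747-5804046 (minus strand) and Gys1 is chr7:45434589-45434888 (plus strand). Capitals again mark CANNTG.
Ckm: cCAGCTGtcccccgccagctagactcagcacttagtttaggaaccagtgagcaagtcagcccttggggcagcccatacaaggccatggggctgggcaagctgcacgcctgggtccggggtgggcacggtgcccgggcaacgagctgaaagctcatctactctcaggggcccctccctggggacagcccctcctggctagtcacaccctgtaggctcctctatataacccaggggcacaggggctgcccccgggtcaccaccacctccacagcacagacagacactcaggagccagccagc
Pygm: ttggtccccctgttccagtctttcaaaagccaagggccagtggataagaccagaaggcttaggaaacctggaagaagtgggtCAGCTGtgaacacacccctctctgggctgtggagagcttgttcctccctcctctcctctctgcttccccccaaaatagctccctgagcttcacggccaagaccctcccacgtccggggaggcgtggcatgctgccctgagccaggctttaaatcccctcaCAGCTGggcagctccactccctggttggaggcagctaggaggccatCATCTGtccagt
Pgam2: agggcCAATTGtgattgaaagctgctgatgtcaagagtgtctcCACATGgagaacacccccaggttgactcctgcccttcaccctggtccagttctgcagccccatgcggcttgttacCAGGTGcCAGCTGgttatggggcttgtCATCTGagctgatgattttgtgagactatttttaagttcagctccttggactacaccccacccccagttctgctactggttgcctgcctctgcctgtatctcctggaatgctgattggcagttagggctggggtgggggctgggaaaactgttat
Gys1: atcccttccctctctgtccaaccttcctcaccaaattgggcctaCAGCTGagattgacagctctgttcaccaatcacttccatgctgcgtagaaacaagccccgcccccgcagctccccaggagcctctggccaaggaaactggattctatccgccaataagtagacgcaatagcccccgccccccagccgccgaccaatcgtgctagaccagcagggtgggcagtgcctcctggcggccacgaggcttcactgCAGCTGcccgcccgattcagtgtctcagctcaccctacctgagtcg

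CAGCTG stood in a listed promoter of 15 of the 29 energy genes with a listed start (51.7%), against 17.4% of 17492 protein-coding genes. The energy genes had 48 listed windows over 29 genes, against 21263 over 17492 genes, and with the outermost start alone the shares were 41.4% and 15.1%. None of the 3 covered promoters held CAGCTG. Across the genome it stood in 16.5% of the 2109 windows under a shared region and in 15.6% of all 21263. Any CANNTG stood at 27 of the 29 energy genes (93.1%), against 72.1% of all. CACCTG, read on both strands, stood at 9 (31.0% against 22.1%), and the MEF2 motif, read on both strands, at 3, namely Pfkfb1, Pgam2 and Ak1 (10.3% against 3.27%). With the outermost start alone the shares for CACCTG (20.7% against 19.3%) and the MEF2 motif (3.45% against 2.94%) came closer to the background. The share for CANNTG did not (93.1% against 68.8%). CANNTG includes CAGCTG and CACCTG. A match describes the letters in these windows and does not show that a factor was bound.

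**Figure D1:**
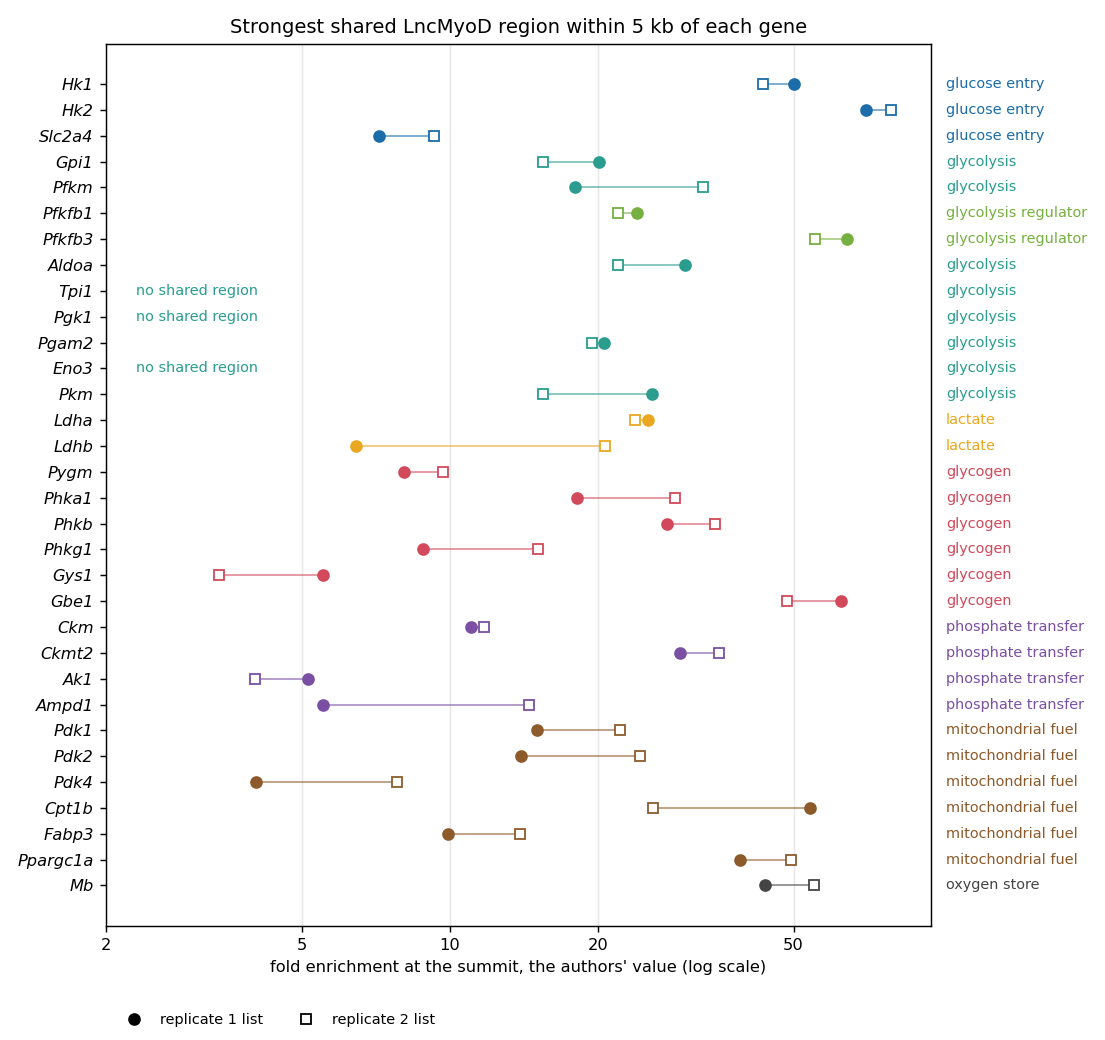
Fold enrichment at the summit (the authors' value, log scale) of the strongest shared region within 5 kb of each of the 32 genes, in the list of replicate 1 (filled circles) and of replicate 2 (open squares), coloured by role. Hk2, Pfkfb3, Gbe1 and Mb lay above 40-fold in both lists, as did Hk1, and Gys1, Ak1 and Pdk4 lay below 8-fold in both.

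Glucose enters the muscle fibre through GLUT4, encoded by Slc2a4, and is phosphorylated by hexokinases. Hk2, the insulin-responsive hexokinase of muscle, had 6 shared regions on chromosome 6 around its span (82725025 to 82774454). The strongest by place lay 4668 bp beyond its other end (82718241 to 82720357), with folds of 70.2 and 79.1 and place 455. The region over its start (82773539 to 82775827, 2289 bp wide) had folds of 82.6 and 51.0 and place 1508, and the summits of the lists were 31 bp apart. Both regions were high in both lists, and 7.18% of genes in the length class of Hk2 had as many regions. Hk1, the hexokinase of most tissues, had 17 regions, the most of any energy gene, where the median of its length class was 8 and 14.0% of that class had as many. Its strongest region (50.04-fold and 43.3-fold, place 1738) lay 4968 bp beyond its end, inside Tacr2, and the next (62362270 to 62363521, 43.8-fold and 42.4-fold) lay inside Hk1 itself. No shared region of Hk1 lay within 1 kb of its 2 listed starts. Slc2a4 had 1 weak region inside its span (69946151 to 69946737, 7.16-fold and 9.27-fold), which was also within 5 kb of Ybx2.

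The enzymes of glycolysis itself are encoded by 8 genes, of which 5 had a region (62.5%), against 66.2% of genes of the same length. They had 8 regions in all, where the medians of their length classes add up to 10. Aldoa (aldolase) was the only one with a region at a start: 126798557 to 126799035 on chromosome 7, 30.1-fold and 21.9-fold, with its middle 382 bp downstream of the nearest of 3 listed starts. Gpi1 (glucose phosphate isomerase) had a region of 20.1-fold and 15.4-fold inside the gene and a weak one of 4.41-fold and 4.02-fold. Pfkm, the muscle phosphofructokinase, had a region of 18.0-fold and 32.7-fold 2799 bp past its end, inside Asb8, and 1 inside the gene of 8.60-fold and 7.41-fold. Pgam2 had a region of 20.6-fold and 19.4-fold 2485 bp past its end, which lay inside Dbnl. Pkm, the pyruvate kinase of muscle, had a region of 25.7-fold and 15.5-fold over its far end that also overlapped Gramd2, and an intragenic one that differed between the lists (4.04-fold and 23.2-fold). For Pfkm and Pgam2 the strongest region thus lay in a neighbouring gene, and its link to either gene was not tested.

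Tpi1, Pgk1 and Eno3 encode triosephosphate isomerase, phosphoglycerate kinase and the muscle enolase. Near Tpi1 the lists had 1 peak each, but at different places: replicate 1 a peak of 5.14-fold 4911 bp past the gene, replicate 2 a peak of 15.8-fold inside it (124811838 to 124812188). Its nearest shared region lay 6073 bp away, in Usp5 (5.14-fold and 5.25-fold). Eno3 had no peak in either list within 5 kb. Its nearest shared region lay 6856 bp away, over Spag7 and Camta2 (5.14-fold and 8.96-fold). Pgk1, on the X chromosome, had no peak in either list, and its nearest shared region lay 62099 bp away. Tpi1 and Eno3 thus lay just outside the 5 kb window. The strongest regions of Hk1, Hk2, Pygm, Ckm and Ldha lay just inside it, 4398 to 4968 bp from the span.

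The PFKFB enzymes make and remove a sugar bisphosphate that activates phosphofructokinase. Pfkfb3, the form with the strongest kinase activity, had 8 regions, and 8.13% of genes of its length class had as many. The first by place (chromosome 2, 11535865 to 11537909) had folds of 64.3 and 55.3 and place 1801, with summits 43 bp apart. The next (11509012 to 11511518) had folds of 40.03 and 39.2. A further 5 lay between 11530142 and 11549455 in the 5′ part of the gene, with folds of up to 41.5 in replicate 1 and 22.5 in replicate 2. Pfkfb1, the liver and muscle form on the X chromosome, had a region of 24.0-fold and 21.9-fold inside it. Another, of 11.8-fold and 5.87-fold, lay inside the span within 1 kb of its far end.

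Lactate dehydrogenase is built from the A subunit of fast muscle (Ldha) and the B subunit of heart (Ldhb). Ldha had a single region of 25.3-fold and 23.8-fold (chromosome 7, 46836151 to 46837876), 4398 bp before its span and 8791 bp, middle to start, before its nearest listed start. When the span was counted from the outermost listed start, a setting chosen after the data were seen, Ldha had no region. Ldhb had 1 region inside the gene, with unequal folds of 6.45 and 20.7.

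**Figure D2:**
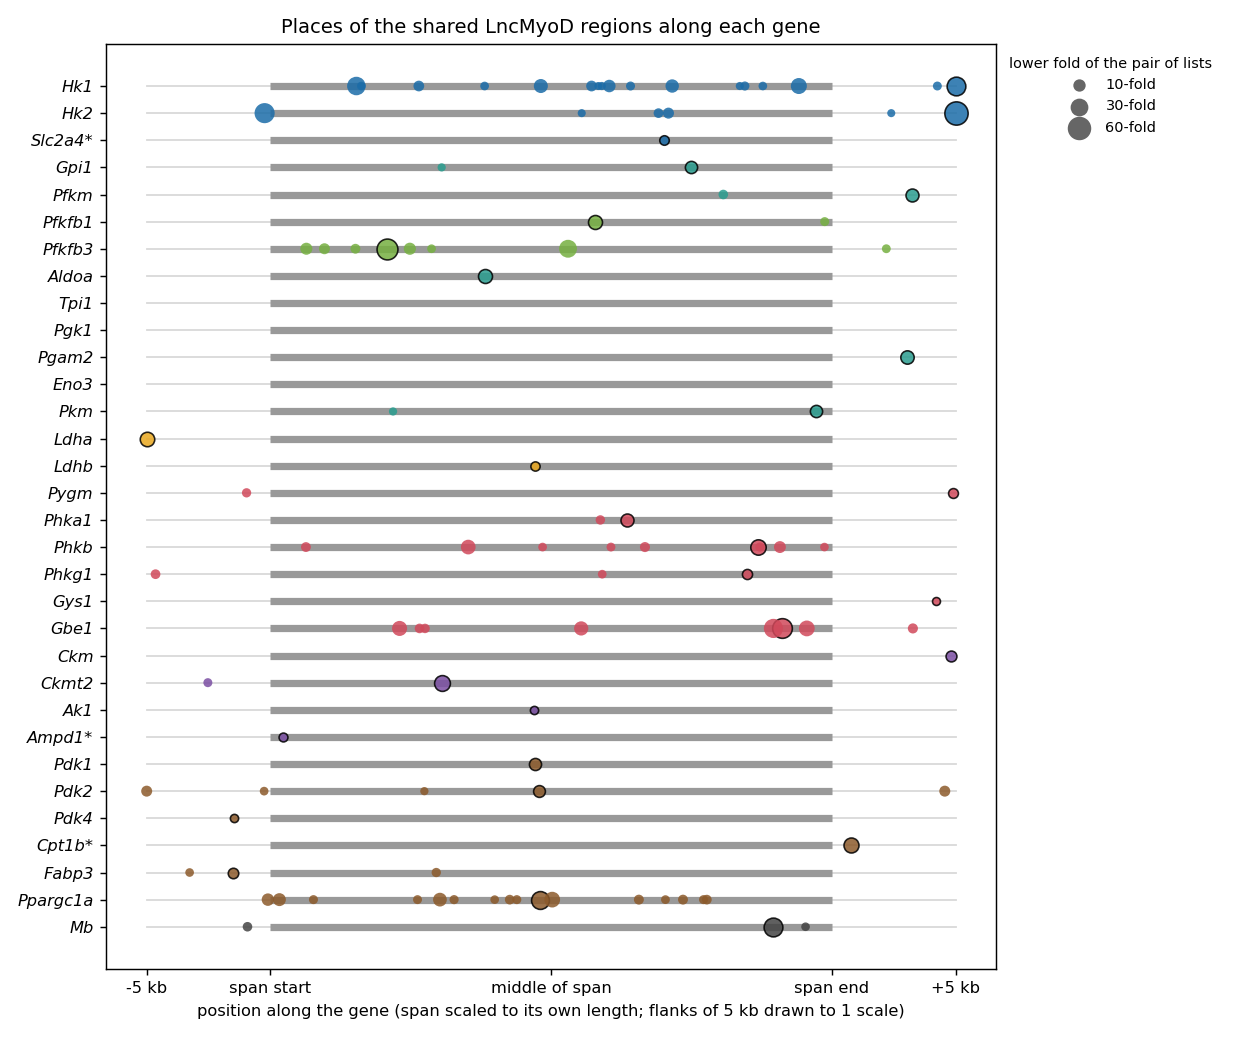
Places of the 104 shared regions along the 32 genes. Each span is scaled to its own length (thick line) and runs from its 5′ to its 3′ end, flanks are 5 kb (thin line), point size is the lower fold of the pair of lists and a black ring marks the strongest region of the gene. Starred genes have no listed start and run by genome coordinate. Most points belong to the long spans of Hk1, Ppargc1a, Phkb, Gbe1 and Pfkfb3, and Hk1, Hk2, Pygm, Ckm and Ldha have their strongest region near the outer border of a flank.

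Glycogen is built by glycogen synthase and the branching enzyme and broken down by phosphorylase, which phosphorylase kinase switches on. Gbe1, the branching enzyme, had the strongest regions of this group. The first (chromosome 16, 70546219 to 70547981) had folds of 62.4 and 48.5 and place 2135, and the lists placed its summit at the same base. The second, 70542064 to 70544057, had folds of 45.9 and 46.6 with summits 6 bp apart. The 8 regions of Gbe1 equalled the median of its length class. Of phosphorylase kinase, the beta subunit gene Phkb had 9 regions (best 27.6-fold and 34.6-fold), 43.8% of its class having as many. The catalytic subunit gene of muscle, Phkg1, had 3 (best 8.81-fold and 15.1-fold). The alpha subunit gene of muscle, Phka1 on the X chromosome, had 2 (best 18.1-fold and 28.7-fold), and 95.1% of its class had as many. Pygm had 2 weak regions, 1 with its middle 959 bp before the start (6383225 to 6383673, 6.61-fold and 11.7-fold) and 1 in Rasgrp2 past its end (8.08-fold and 9.70-fold). Gys1 had only a region of 5.51-fold and 3.40-fold, 3948 bp past its end and also within 5 kb of Ftl1 and Bax, which took place 93796. The subunits of a single complex, phosphorylase kinase, thus ranged from 2 to 9 regions. Phka1 (130327 bp) had fewer than the shorter Phkg1 (15704 bp). Phka1 is X-linked, and 42.2% of X-linked protein-coding genes had a region, against 72.2% of autosomal ones. The length classes do not separate these, and whether the chromosome bears on the count was not tested.

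Creatine kinase and adenylate kinase keep ATP constant during contraction, and AMP deaminase removes the AMP that builds up. Ckmt2, the mitochondrial creatine kinase of muscle, had a region of 29.4-fold and 35.2-fold inside the gene (chromosome 13, 91868828 to 91870621, place 10898) and a weak one of 5.88-fold and 8.34-fold before its start. Ckm, whose product is among the most abundant enzymes of the fibre, had 1 region of 11.0-fold and 11.7-fold, 4538 bp past its end and inside Mark4, with summits 4 bp apart. Ampd1, the AMP deaminase of muscle, had 1 region inside its span, within 1 kb of an end (5.51-fold and 14.5-fold). Ak1 had only the weak region at the promoter shown above, place 93902. Of the 4 genes Ckmt2 alone exceeded 20-fold.

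In mitochondria, pyruvate dehydrogenase kinases turn the fibre from glucose to fat, and PGC-1alpha, encoded by Ppargc1a, drives oxidative gene expression. Cpt1b, which admits long-chain fatty acids to the mitochondria of muscle, had a region of 54.0-fold and 25.9-fold over an end of its span (chromosome 15, 89425580 to 89427706) that also overlapped Chkb. Fabp3, a fatty acid carrier, had 3 regions (best 9.92-fold and 13.9-fold, its middle 1498 bp before the start), and 6.90% of its length class had as many. Pdk2 had 5 regions within 5 kb of its span of 15114 bp, of which 2 lay over the span itself. The best was of 14.0-fold and 24.4-fold, and 1.69% of its class had as many regions. A pair of the 5 lay in the neighbours Samd14 and Itga3. Pdk1 had 1 region inside the gene (15.1-fold and 22.2-fold). Pdk4, the fasting-induced kinase, had 1 weak region with its middle 1476 bp before the start (4.04-fold and 7.81-fold).

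Ppargc1a had 16 regions within 5 kb of its RefSeq span of 661605 bp. The strongest (chromosome 5, 51797594 to 51799275) had folds of 38.9 and 49.4, summits 9 bp apart and place 5478. All 16 lay before the listed start at 51567725, the nearest with its middle 33941 bp away and the farthest 548223 bp away. No shared region reached the 113477 bp from that start to the end of the gene or the 5 kb around them. Whether Ppargc1a was counted with 16 regions or with none therefore depended on how far its annotation was taken to extend.

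Mb encodes myoglobin, which stores oxygen in the fibre. Its strongest region lay inside the gene (chromosome 15, 77017919 to 77020462), with folds of 43.8 and 55.0 and place 3344, its middle 3537 bp downstream of the nearest listed start. A weaker region (7.35-fold and 7.72-fold) lay 360 bp beyond the span, at the outermost of 3 listed starts and inside Apol6. The strong region was 2544 bp wide, against a median of 749 bp for all shared regions.

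Of the 32 genes, 12 had a best region of at least 20-fold in both lists (37.5%), against 29.9% of all protein-coding genes and 33.2% of those of the same length. A region among the strongest 10% of all shared regions lay near 7 (21.9%), against 18.8% of all genes and 21.2% of those of the same length. The median best fold of the 29 genes with a region was 20.1 and 21.9, against 19.8 and 21.6 for all protein-coding genes with a region. Over these 29 genes the best folds in the lists had a Spearman correlation of 0.868 and a Pearson correlation of 0.875. Regions were required to be in both lists, so these values only describe how alike the lists were. Strength at the energy genes was thus close to that elsewhere in the genome.

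The 104 regions were unevenly spread. A single region was found at 12 genes, 2 or 3 regions at 10 genes, and 4 or more at 7 genes, which together held 69 regions (66.3%). The median was 2 regions per gene, against 1 for all protein-coding genes. Against the median of their own length class, 12 genes had more (37.5%, against 34.9% of all protein-coding genes), 14 the same number (43.8% against 29.5%) and 6 fewer (18.8% against 35.6%). The numbers least often reached within their own length class were those of Pdk2 (1.69% of its class), Fabp3 (6.90%), Hk2 (7.18%) and Pfkfb3 (8.13%). These 4 genes (12.5%) were picked out by having a number that at most 10% of their class reached, as had 6.995% of all protein-coding genes. With a fold of at least 10, Pdk2 kept 3 regions, Hk2 3 and Pfkfb3 5, and Fabp3 kept none. Over the span itself lay 2 at Pdk2, 1 at Fabp3, 4 at Hk2 and 7 at Pfkfb3.

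**Figure D3:**
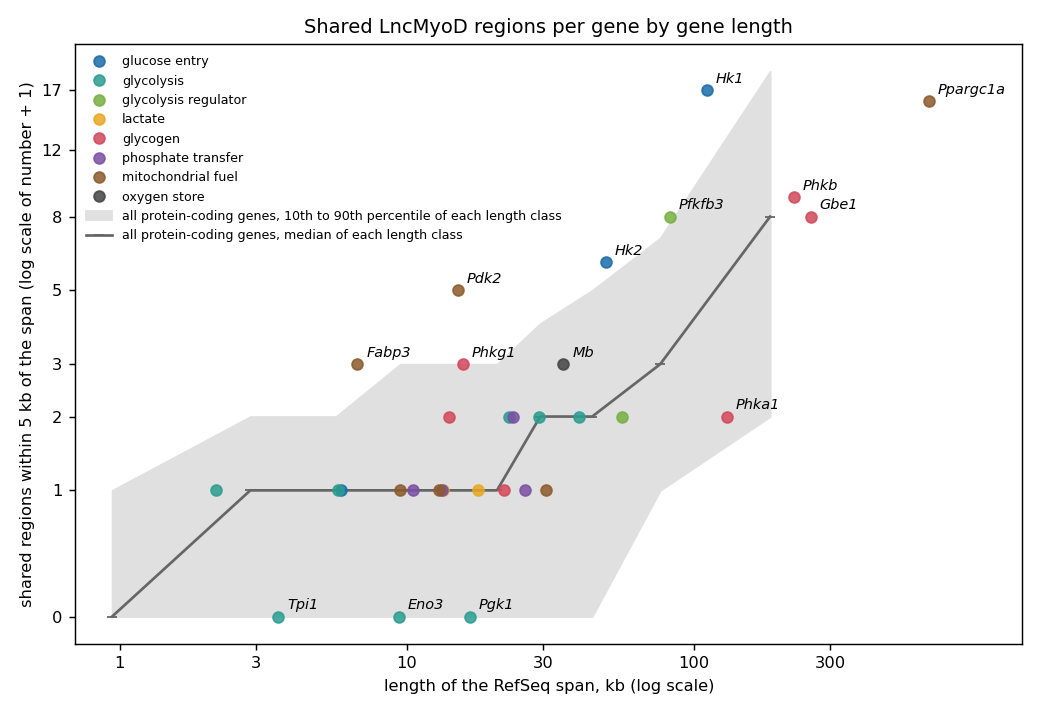
Number of shared regions within 5 kb of the span (log scale of number + 1) against span length in kb (log scale) for the 32 genes, with the median (line) and the 10th to 90th percentile (band) of all protein-coding genes in 10 length classes. Pdk2 with 5, Fabp3 with 3, Hk2 with 6 and Pfkfb3 with 8 regions lie above the band, and Tpi1, Eno3 and Pgk1 lie at 0. Hk1 with 17 regions also lies above the drawn band, which joins the classes at their median lengths. The 90th percentile of its own class is 19.

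Of the 101 regions at the 29 genes with a listed start, 74 (73.3%) overlapped the span more than 1 kb from any listed start and from the other end. Of regions at all such protein-coding genes 69.2% did so. At a start (within 1 kb) lay 6 (5.94% against 8.81%), at the other end 2 (1.98% against 5.64%), in the flank before the gene 7 (6.93% against 7.76%) and in the flank after it 12 (11.9% against 8.63%). The 74 include all 16 regions of Ppargc1a, which lay before its only listed start. With the span taken from that start Ppargc1a had no region, so these shares depend on the extent of its annotation. Counted by gene, 6 of the 29 had a region within 1 kb of a listed start (20.7%), against 18.6% of all: Hk2, Aldoa, Pygm, Ak1, Pdk2 and Mb. Of the 104 regions, 19 were also within 5 kb of another protein-coding gene and 12 overlapped such a gene. Slc2a4, Ampd1 and Cpt1b have no listed start and were left out of these counts.

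The width of the window and the strictness of the calls moved the energy genes and the background together. Over the span itself 23 of the 32 genes had a region (56.4% of all genes), within 1 kb 24 (59.8%), within 10 kb 31 (79.6%) and within 5 kb of either end 24 (57.2%). Tpi1 and Eno3 were the genes gained at 10 kb. With a −log10 q of at least 5 there were 26 (68.0%), with a fold of at least 5 also 26 (65.4%), and with a fold of at least 10 there were 20 (49.3%). Gys1, Ak1 and Pdk4 were the genes lost at the first and second of these limits. A reciprocal overlap of 50% gave 23 (58.8%), summits within 200 bp 24 (63.4%) and the 10000 strongest peaks of each list 6 (13.5%). Spans taken from the outermost listed start gave 27 (69.9%), without Ldha and Ppargc1a. For 32 genes equal length gave 23.2, 22.4 and 17.1 at the limits on q and fold. In the order given, it gave 20.2 and 21.7 for the stricter overlaps, 4.87 for the strongest peaks and 23.9 for the outermost start. Within 1 kb of a start there were 10 of 29 genes with the list of replicate 2 alone (27.3%) and 7 with that of replicate 1 alone (23.6%). There were 5 with a −log10 q of at least 5 (17.4%), 5 with a fold of at least 5 (15.9%) and, within 5 kb of a start, 14 (41.3%).

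Taken singly, the lists had peaks near 30 of the 32 genes each, against 79.1% of protein-coding genes in replicate 1 and 82.7% in replicate 2, and Tpi1 joined in both. For 32 genes equal length gave 26.8 in replicate 1 and 27.9 in replicate 2. Within 5 kb of the genes lay 46 peaks of replicate 1 and 65 of replicate 2 without a partner, with median folds of 5.14 and 5.87, where the shared regions of the same genes had medians of 10.7 and 11.7. A few were strong. Replicate 1 had a peak of 30.9-fold inside Ppargc1a (51870164 to 51871472) and 1 of 27.9-fold at the innermost listed start of Pfkm (98112228 to 98113670). Replicate 2 had a peak of 25.3-fold 680 bp before Pdk2 (95042051 to 95042512) and 1 of 24.8-fold inside Phkb (86039958 to 86040734). These 4 peaks were each called in 1 list alone, although Pdk2 also had shared regions before its start, among them the one over the promoter shown above.

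Most steps have paralogs used in other tissues, which gives a comparison within each step. Of 35 paralogs that are not among the 32 genes, 31 (88.6%) had a shared region within 5 kb, against 90.6% of the muscle energy genes, and genes of the paralogs' lengths had 75.2%. Eno3 had none, while Eno1 and Eno2, the enolases of most tissues and of neurons, had 1 and 2 regions (best 10.3-fold and 7.49-fold, and 10.5-fold and 16.1-fold). Ckm had 1 region and the brain gene Ckb none, with 1 peak in each list. Pkm reached 25.7-fold and 15.5-fold, and the liver and red cell gene Pklr reached 77.9-fold and 69.7-fold. By place, 246, the Pklr region stood above that of every energy gene. Pygm reached 8.08-fold and 9.70-fold, and the liver gene Pygl reached 20.2-fold and 34.0-fold. Gys1 reached 5.51-fold and 3.40-fold, and the liver gene Gys2 reached 30.8-fold and 25.3-fold. Slc2a4 reached 7.16-fold and 9.27-fold, and the liver transporter gene Slc2a2 reached 38.6-fold and 30.3-fold. Cpt1b had 54.0-fold and 25.9-fold where the liver gene Cpt1a had 35.1-fold and 29.3-fold, so their order differed between the lists. Hk2, with 70.2-fold and 79.1-fold, exceeded Hk3 (31.2-fold and 58.4-fold). Among these pairs the muscle gene was thus the higher one for Hk2 against Hk3 and the lower one at Pkm, Pygm, Gys1 and Slc2a4. Best folds were not matched for length. Pygl, Gys2, Slc2a2 and Cpt1a had longer spans than their muscle counterparts, and Pklr and Hk3 shorter ones. The best regions of Pklr and Hk3, like those of Hk2, Pygm and Gys1, lay outside the gene's span.

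A further 41 genes of the same pathways that are neither members nor paralogs included 27 with a shared region (65.9%), against 73.2% of protein-coding genes of the same length. They were led by Gsk3b, a kinase that inhibits glycogen synthase (87.2-fold and 74.4-fold, place 111), Pdp2, a pyruvate dehydrogenase phosphatase (39.1-fold and 58.7-fold), Dlat, a subunit of that complex (42.2-fold and 44.8-fold), and Pgm1, a phosphoglucomutase (47.4-fold and 25.5-fold). For Pdp2 only a peak of replicate 1 reached within 5 kb. The replicate 2 peak of the same region lay farther out. The share thus lay above the value for equal length in the 32 genes and their paralogs and below it in the other genes of the pathways, but for 2 of the lists this turned with the setting. With replicate 1 alone the other pathway genes reached 34 of 41 (82.9%), against 82.6% of genes of the same length. Within 10 kb they reached 33 (80.5%), against 82.2% of genes of the same length and 79.6% of all genes. With the 10000 strongest peaks of each list 1 of the 35 paralogs had a region (2.86%), against 13.2% of genes of the same length.

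**Figure D4:**
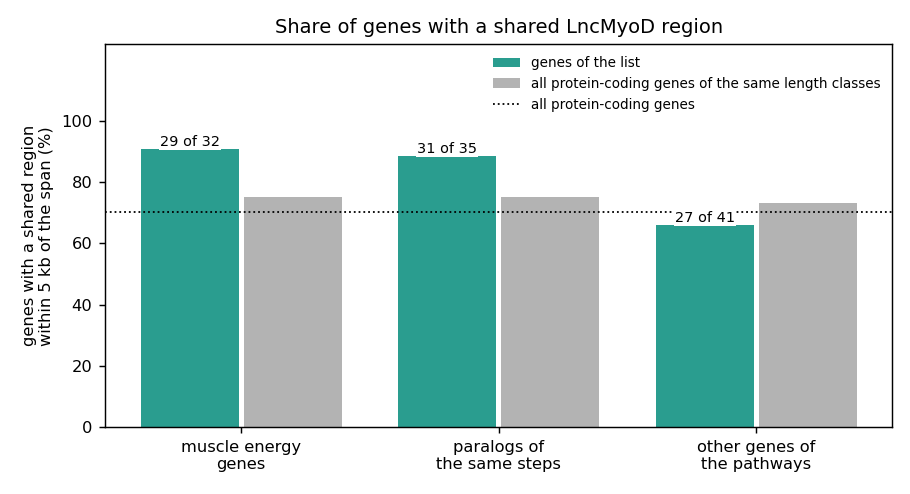
Percent of genes with a shared region within 5 kb of the span for the 32 muscle energy genes, 35 paralogs of the same steps and 41 other genes of the pathways, each left of the share of all protein-coding genes in the same length classes. The dotted line is the share of all protein-coding genes, 70.3%. The energy genes and the paralogs stand above their length-matched value (90.6% against 75.0%, 88.6% against 75.2%) and the other pathway genes below it (65.9% against 73.2%).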

How the data were processed

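Per the submitters' processing notes, the tools were MACS2 2.1.1, Bowtie2 2.3.2 and Picard 2.9.2, and the build was mm10. Their order and parameters, and the treatment and control libraries of each list, are not given in these sources. Per the narrowPeak layout, the authors deposited for each peak a fold (the ratio to the caller's background at the summit), a −log10 q, a score and a summit position. Fold and q are used within a list. The score was not used.

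Genes came from a RefSeq table of GRCm38.p6, the assembly behind mm10, and starts and promoter sequences from a RefSeq promoter table that lists 29 of the 32 genes and 17492 of 21887 protein-coding genes. Peaks overlapping by at least 1 bp were joined into shared regions. A region counted for a gene if any base lay within 5 kb of its span. The members, their grouping, the paralogs and the other pathway genes were chosen with earlier results of these data known, so lists are described by counts beside the background, with no test. Motif counts used 300-base windows. All 32 members, the paralogs and the 4 other pathway genes with the strongest region by −log10 q could be named. Further genes are named as neighbours of a region, or of Myod1. The joining and counting steps were tested on simulated peaks. They ran in Python 3.11.15 with pandas 2.3.3, numpy 2.4.6 and scipy 1.17.1, and figures were drawn with matplotlib 3.10.9. Alternatives were single lists, stricter peaks, stricter overlaps, other windows and 20 length classes.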

Additional observations from a re-analysis of the deposited data

How the results depend on the processing

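The count of 29 of 32 genes ranged, under all settings but one, from 20 at a fold of at least 10 (49.3% of all genes) to 31 within 10 kb (79.6%). With the 10000 strongest peaks of each list it was 6 (13.5% of all genes), where equal length gave 15.2%, since fewer peaks entered. It was 23 with a reciprocal overlap of 50% (58.8%) and 23 over the span itself (56.4%), where the genes lost were Pgam2, Ldha, Pygm, Gys1, Ckm and Pdk4. Counting spans from the outermost listed start, chosen after seeing the data, gave 27 (69.9%) without Ldha and Ppargc1a, whose 16 regions became 0. Each list alone gave 30. The median of 2 regions per gene was 3 to 3.5 with a single list, 0 with the 10000 strongest peaks, and 1 at −log10 q of at least 5, at folds of at least 5 or 10, under either stricter overlap, over the span itself, within 1 kb and within 5 kb of either end. Genes with a region within 1 kb of a start numbered 6, 7 to 10 with a single list, and 14 within 5 kb of a start (41.3% of all). The other pathway genes, 27 of 41, numbered 33 to 34 with a single list and 33 within 10 kb (79.6% of all genes), 14 at a fold of at least 10 (34.1% against 49.3%) and 3 with the 10000 strongest peaks (7.32% against 13.5%). Against genes of the same length, the 32 energy genes lay above at all 13 other settings, the paralogs at all but the 10000 strongest peaks (2.86% against 13.2%), and the other pathway genes below at all but replicate 1 alone (82.9% against 82.6%). Equal length gave 75.3% with 20 classes. No paired analysis was possible because each list pools the samples of its replicate. Gys1, Ak1 and Pdk4 lost their only region at −log10 q of at least 5, and read depth is unknown.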

Other observations

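Among the energy genes, Ldha and Gys1 lie closest to the Myod1 neighbourhood on chromosome 7. The strongest shared region between Otog and Kcnc1, the interval that holds Myod1 (46344299 to 46347749, 109-fold and 90.2-fold, place 15), is 494.5 kb from the Ldha span and 887.7 kb from that of Gys1. Ldha had 1 region and Gys1 a single weak one. Ldhc, the testis lactate dehydrogenase gene next to Ldha, had 3 regions (best 23.1-fold and 39.8-fold). The 3 energy genes on the X chromosome, Phka1, Pfkfb1 and Pgk1, had 2, 2 and 0 regions. A shared region within 5 kb of the span was found at 42.2% of X-linked and 72.2% of autosomal protein-coding genes.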
